A study of Mus musculus with 2 samples.

Results

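The roof plate is the strip of cells that closes the neural tube along its dorsal midline, and in the hindbrain and forebrain part of it becomes the choroid plexus epithelium. Of 11212 cells that passed the quality filter in 2 single-cell RNA-seq libraries of mouse heads at embryonic day E11.5, 80 were chosen here as candidate roof plate and choroid plexus cells, 34 from the control and 46 from the mutant library. A cell was chosen if it held at least 1 UMI of Lmx1a, a LIM homeodomain factor of the roof plate, or at least 10 UMIs of Ttr, which encodes transthyretin, the thyroid hormone carrier secreted by the choroid plexus. Each UMI stands for 1 captured transcript, since PCR copies of a molecule share their tag. Cells with over 2 UMIs of the neuronal genes Elavl3 and Stmn2, over 1 UMI of the mesenchyme genes Prrx1, Prrx2 and Twist1, or any UMI of Sox10 or Foxa2 were left out. These genes are called the gate genes and the chosen cells the gated cells. The cells were chosen by the UMIs of these genes, so the levels of the gate genes are a description only.

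In the embryo, the roof plate secretes WNT and BMP ligands that pattern the dorsal neural tube, together with R-spondins, which enhance WNT signalling. Its cells can leave the cell cycle before their neighbours and give rise to the choroid plexus epithelium, a layer that carries motile cilia, moves ions and water into the cerebrospinal fluid and secretes transthyretin. The Wnt1 promoter is active in the dorsal neural tube and its neural crest, so a Wnt1-driven recombinase also marks brain cells that never migrate.

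Both libraries carried Wnt1:CRE and 2 copies of the r26 mTmG reporter, which turns recombined cells GFP-positive, and GFP-positive cells were sorted from dissociated heads. The control library pooled 2 embryos with Tfap2a wt/flox and Tfap2b wt/flox, so that its recombined cells kept 1 working copy of each gene. The mutant library pooled 2 siblings with both genes flox/flox. Tfap2a and Tfap2b encode AP-2 transcription factors. With 1 library per genotype there was no replicate error, so no test was made. The intervals in brackets are exact 95% intervals for counting error alone and leave out the spread between embryos. Where UMIs are pooled over cells, they also leave out the spread between cells. The control gated cells all held Xist UMIs and 38 mutant gated cells held UMIs of Y-linked genes, so the effects of sex and genotype cannot be told apart.

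The gated cells were a small part of each library. Of the 5625 kept control cells 0.604% (0.419 to 0.844) were gated, and of the 5587 kept mutant cells 0.823% (0.603 to 1.10). The mutant share was 0.219 points above the control (-0.106 to 0.549), an interval that includes 0. A further 60 control and 106 mutant cells reached the Lmx1a or Ttr limit but were left out, most often for a UMI of Foxa2, in 39 and 62 cells. The gated cells held 407638 UMIs in the control and 549863 in the mutant, with medians of 10500 and 11514 UMIs per cell. All 34 control cells entered through Lmx1a, while in the mutant 35 entered through Lmx1a alone, 4 through Ttr alone and 7 through both. Many stood at the limit, since 14 control and 22 mutant cells held 1 Lmx1a UMI. Just outside it were 5 control and 16 mutant cells that held Ttr but no Lmx1a and met the other conditions, with at most 2 and 1 Ttr UMIs. Among mesenchyme-marked cells, which should lack Lmx1a and whose median depths were 15269 and 15235 UMIs, 0.183% (0.0673 to 0.399) in the control and 0.673% (0.385 to 1.09) in the mutant held a UMI of it.

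The label held for part of the gated cells. A class was set for each cell from Ttr or from genes outside the gate, after the values had been seen, and is named here only by its mark. Cells with 3 or more UMIs of the dorsal factors Zic1 to Zic5 and under 10 of Ttr, the Zic-marked cells, numbered 18 in the control and 27 in the mutant. Cells outside that class with 2 or more UMIs of the floor plate markers Shh, Foxa1, Corin, Spon1 and Ferd3l, the floor-plate-marked cells, numbered 11 in the control and 7 in the mutant, and 1 control and 2 mutant Zic-marked cells also held 2 or more of these UMIs. Cells with at least 10 Ttr UMIs, the Ttr-high cells, numbered 0 and 11. The other 4 cells of low marks were 3 in the control and 1 in the mutant. The last 2 gated barcodes, both in the control, held between 15160 and 16365 haemoglobin UMIs each and none of Wnt1, Msx1, Sox2 or Otx2. Haemoglobin made up 57.5% of their UMIs, and they held 13.4% of all control gated UMIs.

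**Figure D1:**
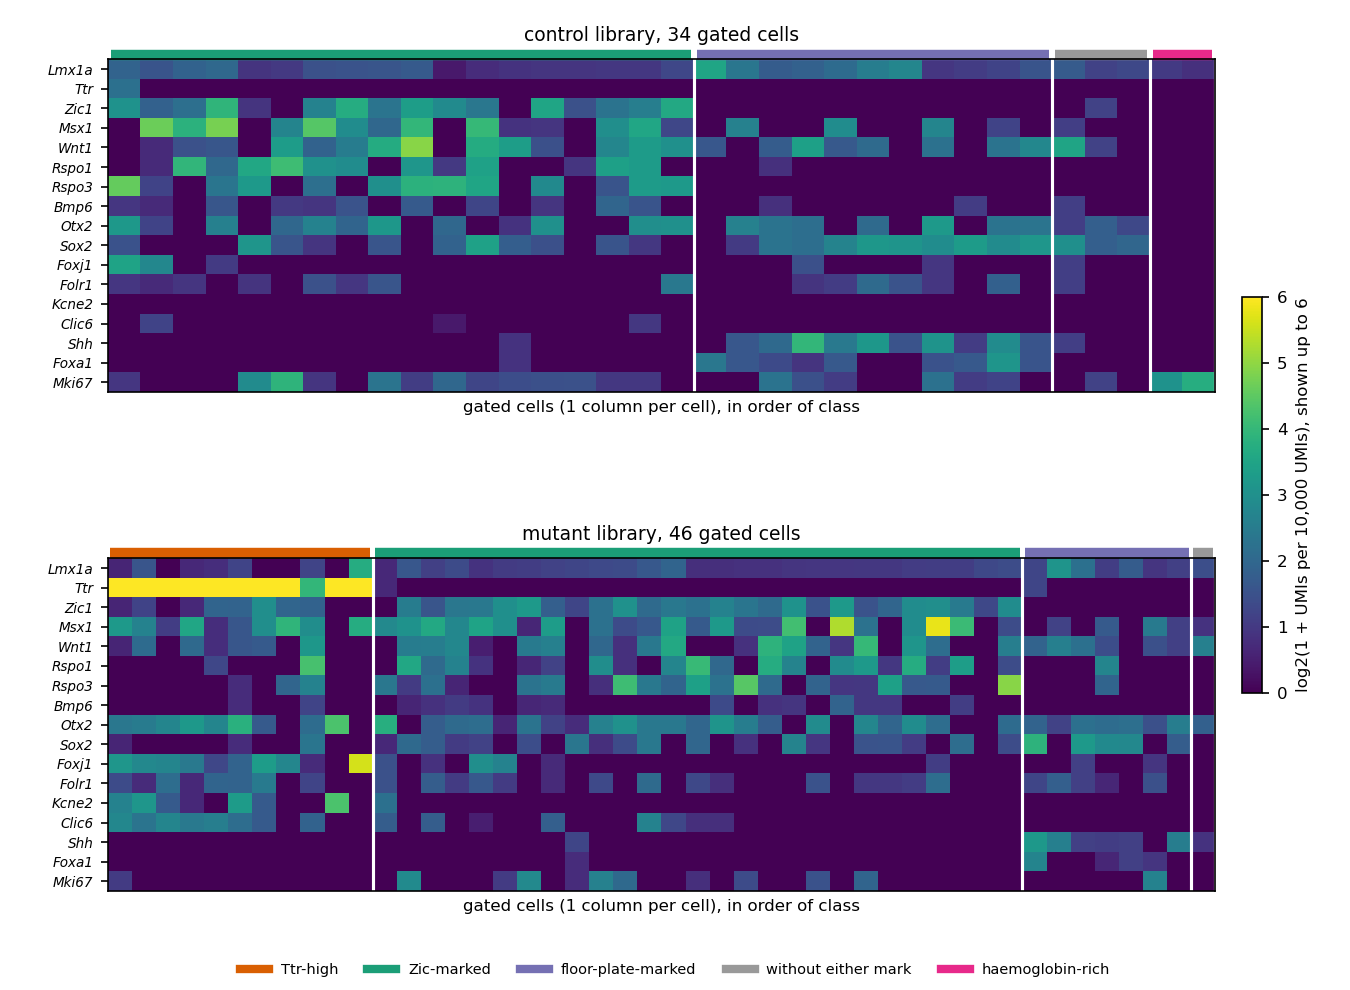
Level of 17 genes in each gated cell, as log2 of 1 plus UMIs per 10000 UMIs of the cell, with 1 column per cell, cells ordered by class and the colour scale cut at 6. Msx1, Rspo1 and Rspo3 were high in Zic-marked cells, Shh and Foxa1 in floor-plate-marked cells, and Ttr, Foxj1, Kcne2 and Clic6 in the 11 Ttr-high cells of the mutant library.

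The Zic-marked cells carried the roof plate markers. Msx1, a homeobox factor induced by BMP signalling, was found in 14 of 18 control cells, with a median of 7 and a highest value of 37 UMIs, and in 23 of 27 mutant cells, with a median of 6 and a highest value of 48. The WNT ligand gene Wnt1 was found in 14 and 19 of these cells, and the R-spondin genes Rspo1 and Rspo3 in 13 each of the control and in 20 and 21 of the mutant. Gdf7, the BMP ligand of the spinal roof plate, was found in 0 control gated cells and in 6 mutant ones, with 7 UMIs. Positional marks varied among the cells. Otx2, a gene of the forebrain and midbrain that the choroid plexus also expresses, was the only positional mark in 6 control and 15 mutant Zic-marked cells, Hox genes of the hindbrain were the only one in 3 and 3, and both were found in 6 and 7. Every floor-plate-marked cell lacked Hox UMIs, and 7 of 11 in the control and 7 of 7 in the mutant held Otx2.

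The floor-plate-marked cells were at odds with the label. Of this class, 10 of 11 control cells and 6 of 7 mutant cells held Shh, the ventral midline signal, at 521.9 and 259.3 counts per 1000000 UMIs (CPM), while 1 Zic-marked cell of each library did. Rspo1 reached 10.9 CPM in the control cells of this class and 580.7 CPM in the control Zic-marked cells. Lmx1b, the relative of Lmx1a, was found in 6 of 11 and 4 of 7 cells, at 108.7 and 129.7 CPM. Zic1 was at 0 UMIs in all 18 cells of the class. Wnt1 was nonetheless present, at 315.3 and 216.1 CPM, and Dkk2, which encodes a secreted WNT modulator, was higher than in Zic-marked cells, with log2 ratios of 3.81 in the control and 1.97 in the mutant. Of the control gated cells 32.4% (17.4 to 50.5) were of this class, and of the mutant ones 15.2% (6.34 to 28.9), which is -17.1 points for mutant minus control (-37.4 to 3.12), an interval that includes 0.

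Ttr was the gate gene with the widest range. The 11 Ttr-high cells of the mutant library held 910, 878, 706, 693, 390, 330, 69, 63, 22, 22 and 10 Ttr UMIs. They made up 23.9% (12.6 to 38.8) of the mutant gated cells, against 0 of 34 in the control, which allows a share of up to 8.82% by the limit of 3 counts and up to 10.3% by the exact interval. At a mitochondrial limit of 5% in place of 10%, the mutant share was 10.5%. Among the other gated cells, the highest value was 4 Ttr UMIs, in a control Zic-marked cell with 11 Foxj1 UMIs. Ttr took 3.66% of all UMIs of the Ttr-high cells, and 4 of these cells had under 5000 UMIs in all, down to 531.

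The control library was not without such barcodes. Over all barcodes, before any filter, 2 in the control and 20 in the mutant held 10 or more Ttr UMIs. The higher of the 2 control barcodes held 818 Ttr, 4 Lmx1a and 7 Folr1 UMIs and was removed because 10.4% of its UMIs were mitochondrial, just over the limit of 10%. The other held 64 Ttr UMIs with 16 of mesenchyme genes. In the mutant, 6 further kept cells with 18 to 1483 Ttr UMIs failed the other conditions, and 3 barcodes with 44, 283 and 1487 Ttr UMIs were removed by the filter. With all kept cells counted, 10 or more Ttr UMIs were held by 0.0178% (0.000450 to 0.0990) in the control library and by 0.304% (0.177 to 0.487) in the mutant one. Mesenchyme-marked cells, which should lack Ttr, held a UMI of it in 0.306% (0.147 to 0.562) of cases in the control and 1.22% (0.818 to 1.75) in the mutant, and values of a few Ttr UMIs are read here as background.

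**Figure D2:**
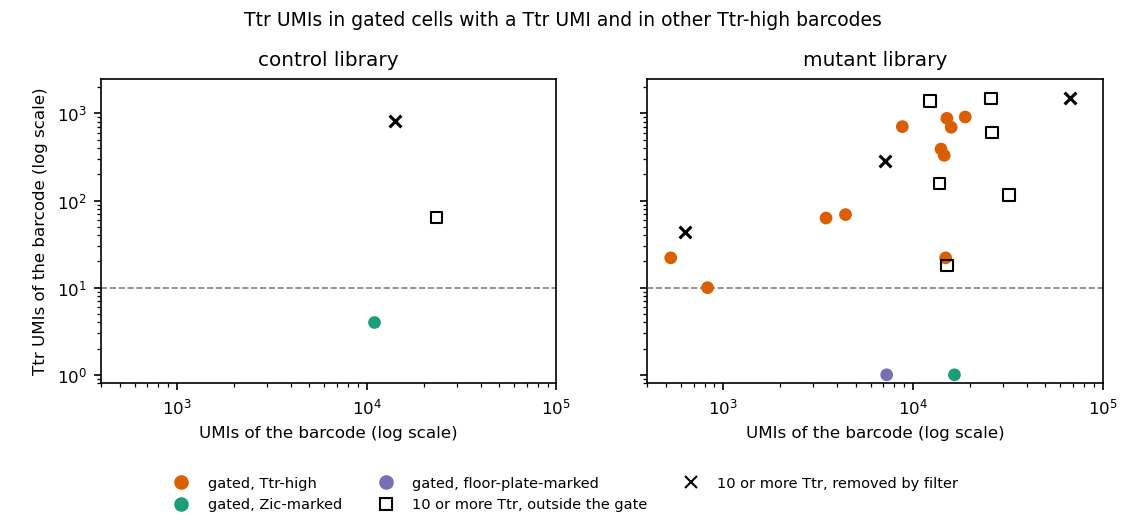
Ttr UMIs against all UMIs of each barcode, both on log axes, for gated cells with a Ttr UMI, for kept cells with 10 or more Ttr UMIs outside the gate and for those removed by the quality filter. The dashed line marks 10 Ttr UMIs, and 11 gated mutant cells but no gated control cell lie on or above it.

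The gated cells were next compared with their nearest relatives in these libraries, the other neural progenitors, which met the same exclusions but held no Lmx1a UMI, under 10 Ttr UMIs and at least 1 UMI of the progenitor factor Sox2. There were 479 of these in the control, with 5713924 UMIs, and 808 in the mutant, with 9511375 UMIs. UMIs were summed over the cells of each kind in each library, and ratios are log2 of CPM in gated cells over CPM in other progenitors. Of 3188 genes with at least 50 UMIs in the gated cells of both libraries together, 124 (3.89%) were at least 2-fold higher in both libraries and 26 (0.816%) at least 2-fold lower in both. The median ratio over all of these genes was -0.13 in the control and -0.03 in the mutant. The minimum counts UMIs of gated cells alone, so a gene rare in other progenitors could pass it only by being high in gated cells. Counts of listed genes past the 2-fold limit are therefore a description only.

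The measured WNT ligand and export genes were higher. Of 14 WNT ligand, R-spondin and WNT export genes, 6 passed the UMI minimum, and all 6 were at least 2-fold higher than in other progenitors in both libraries, with median ratios of 3.97 and 3.52. At their level in other progenitors, Rspo1 and Rspo3 would not have passed it. Summed over all 14 genes without a minimum, the gated cells held 1874 and 1964 CPM against 402.9 and 379.0 CPM in other progenitors. Rspo1 had 139 control and 181 mutant UMIs, 341.0 and 329.2 CPM, against 19.9 and 28.3 CPM in the other progenitors, which gave ratios of 4.10 (3.73 to 4.47) and 3.54 (3.26 to 3.82). Rspo3 stood at 377.8 and 292.8 CPM, with ratios of 4.26 (3.90 to 4.62) and 3.51 (3.21 to 3.80). Both R-spondin genes were thus more than 10-fold above the other progenitors in each library. Wnt8b, a ligand gene of the dorsal forebrain and midbrain, had ratios of 4.16 (3.5 to 4.83) and 3.71 (2.84 to 4.56) on 46 and 22 UMIs. Wnt1 itself had ratios of 2.76 (2.47 to 3.03) and 3.0 (2.74 to 3.26). Wls, which carries WNT proteins to the cell surface, had ratios of 1.74 (1.5 to 1.97) and 2.36 (2.19 to 2.52). Among 22 receptors and targets, by contrast, 5 passed the minimum and 1 was at least 2-fold higher in both libraries, Axin2, a feedback target of WNT signalling, with ratios of 1.01 (0.57 to 1.43) and 1.95 (1.66 to 2.24).

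BMP ligands were also higher, at low counts. Bmp7 was the 1 of 8 ligand genes over the minimum, with 22 and 42 UMIs and ratios of 4.46 (3.43 to 5.54) and 4.50 (3.81 to 5.22). Bmp6, with 22 and 22 UMIs, had ratios of 3.62 (2.73 to 4.51) and 4.11 (3.19 to 5.03). Of 17 receptors, inhibitors and targets, 8 passed the minimum and 4 were at least 2-fold higher in both libraries. These were Bambi, a decoy receptor, at 3.96 (3.4 to 4.53) and 3.97 (3.58 to 4.36), the ligand trap Nog, at 2.13 (1.44 to 2.79) and 2.59 (2.03 to 3.13), and the target genes Msx1, at 2.98 (2.72 to 3.23) and 3.70 (3.5 to 3.90), and Msx2, at 1.09 (0.17 to 1.91) and 2.97 (2.44 to 3.48). Ligand, inhibitor and target genes of the pathway were thus each represented among the higher genes. Sost, whose product binds LRP co-receptors of the WNT pathway, had 11 and 39 UMIs and ratios of 5.68 (3.76 to 8.16) and 5.01 (4.20 to 5.84).

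Progenitor markers differed among themselves. Of 11 such genes, 7 passed the minimum, with 0 higher and 2 lower by 2-fold in both libraries and median ratios of -0.41 and -0.41. Hes5, a Notch target that holds neural progenitors undifferentiated, stood at 105.5 and 154.6 CPM in gated cells against 748.5 and 768.4 CPM in other progenitors, with ratios of -2.83 (-3.30 to -2.39) and -2.31 (-2.64 to -2.01). Fabp7, a fatty acid binding protein of radial glia, had ratios of -1.39 (-1.64 to -1.16) and -1.95 (-2.18 to -1.72). Notch2, a receptor of that pathway, and Hes1, another target, were instead higher, with ratios of 1.81 and 1.99 for Notch2 and 1.49 and 1.31 for Hes1. Of 20 S phase genes, 14 passed the minimum, with 0 higher and 2 lower by 2-fold in both libraries and median ratios of -0.63 and -1.22.

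Motile cilium genes stood far above the other progenitors in summed UMIs, which rested on part of the gated cells. Of 17 such genes, 8 passed the minimum and 7 were at least 2-fold higher in both libraries, with median ratios of 4.16 and 6.39. Genes this rare in other progenitors passed the minimum mainly through their level in gated cells. Summed over all 17 genes without a minimum, the gated cells held 387.6 and 1337 CPM against 67.4 and 66.9 CPM in other progenitors. In the control, 2 Zic-marked cells held 64 and 44 of the 158 UMIs of this sum. In the mutant, the 11 Ttr-high cells held 389 of 735. Floor-plate-marked cells stood at 87.0 CPM in the control and 201.7 CPM in the mutant. Dynlrb2, a light chain of dynein, had 12 control and 101 mutant UMIs and ratios of 6.39 (4.23 to 9.60) and 8.45 (7.18 to 10.1). Ccno, a cyclin needed to make many basal bodies, had 36 and 56 UMIs, while the other progenitors held 0.631 CPM in the mutant and 0 UMIs in the control. Foxj1, the factor that switches on the motile cilium programme, had 25 and 88 UMIs and ratios of 3.93 (3.05 to 4.81) and 5.44 (4.86 to 6.05).

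Several promoters of the cilium genes held the same short sequence. RFX factors and Foxj1 act together on many motile cilium genes, and RFX factors bind the X-box, of which GTTGCC is a core. The windows searched run from 250 bases before each annotated start to a short way past it, on either strand. In them the letters GTTGCC or their reverse complement GGCAAC were found in 8 of the 14 motile cilium genes that matched a RefSeq promoter, against 14.1% of all 27025 genes with one. They were also found in 3 of 9 matched choroid plexus markers and in 1 of 9 matched roof plate marker genes. The letters TAATCC, a core that OTX factors bind, were found in 2 of the 14, against 8.14% of all genes. The letters TAATTA, bound by many homeodomain factors, were found in 0 of the 14, against 6.12%. A match is a description of these windows and not a binding site. The windows below, from RefSeq on GRCm38.p6, are shown 5′ to 3′ on the strand of the gene for 4 cilium genes high in gated cells and for Kcne2, a choroid plexus gene with the same letters, with GTTGCC or GGCAAC in capitals.
Ccno, a cyclin of multiciliated cells, chr13:112987552-112987801, plus strand: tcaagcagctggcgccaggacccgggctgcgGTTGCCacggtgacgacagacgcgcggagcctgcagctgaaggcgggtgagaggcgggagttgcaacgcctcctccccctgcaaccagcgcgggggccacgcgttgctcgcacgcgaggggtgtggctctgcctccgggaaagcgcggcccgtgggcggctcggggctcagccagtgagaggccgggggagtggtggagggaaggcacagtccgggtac
Deup1, a protein of the deuterosome, chr9:15627847-15628096, minus strand: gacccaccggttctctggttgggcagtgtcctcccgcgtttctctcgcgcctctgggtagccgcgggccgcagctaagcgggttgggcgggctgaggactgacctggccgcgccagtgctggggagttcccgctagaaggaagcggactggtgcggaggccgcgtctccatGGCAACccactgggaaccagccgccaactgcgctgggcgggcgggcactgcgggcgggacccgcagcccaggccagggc
Dynlrb2, a dynein light chain, chr8:116504765-116505014, plus strand: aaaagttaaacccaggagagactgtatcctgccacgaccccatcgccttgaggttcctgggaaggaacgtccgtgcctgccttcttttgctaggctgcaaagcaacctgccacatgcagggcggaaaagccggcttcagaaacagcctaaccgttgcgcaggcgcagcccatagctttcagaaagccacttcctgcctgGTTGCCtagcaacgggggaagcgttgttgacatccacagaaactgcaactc
Pifo, a cilium protein, chr3:106001498-106001747, minus strand: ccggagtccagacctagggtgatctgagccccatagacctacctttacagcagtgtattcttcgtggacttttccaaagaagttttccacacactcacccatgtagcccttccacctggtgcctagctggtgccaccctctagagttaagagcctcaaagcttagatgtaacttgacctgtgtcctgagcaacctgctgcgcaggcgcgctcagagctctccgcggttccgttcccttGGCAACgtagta
Kcne2, a potassium channel subunit, chr16:92292139-92292388, plus strand: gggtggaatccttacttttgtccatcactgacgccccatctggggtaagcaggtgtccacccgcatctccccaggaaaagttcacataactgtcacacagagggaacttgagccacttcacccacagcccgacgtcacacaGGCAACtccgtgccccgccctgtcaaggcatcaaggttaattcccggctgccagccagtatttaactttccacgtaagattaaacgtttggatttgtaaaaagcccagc
The capitals begin 219 bases before the start in Ccno, 79 in Deup1, 51 in Dynlrb2, 12 in Pifo and 109 in Kcne2. Deup1, Pifo and Kcne2 each have 2 annotated starts, and the upstream part of a window that holds the letters is shown.

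Genes of the choroid plexus epithelium were higher in the same comparison. Of the 15 choroid plexus markers, 6 outside the gate passed the minimum and 5 were at least 2-fold higher in both libraries. Summed over all markers outside the gate, the gated cells held 434.2 and 1155 CPM against 248.2 and 287.4 CPM in other progenitors. In the control much of this sum was Otx2, also a gene of the forebrain and midbrain. It had 69 of the 130 UMIs in Zic-marked cells and 30 of the 41 in floor-plate-marked cells. The latter class stood at 445.8 CPM for the whole sum. Slc4a5, a bicarbonate transporter of this epithelium, had 15 and 39 UMIs and ratios of 5.72 (4.07 to 7.77) and 7.08 (5.73 to 8.78). Clic6, a chloride channel protein, had 4 and 69 UMIs and ratios of 5.81 (2.47 to 11.4) and 6.52 (5.65 to 7.5). Folr1, which carries folate across the epithelium, had 22 and 62 UMIs and ratios of 3.1 (2.26 to 3.90) and 3.64 (3.15 to 4.13). Both libraries thus held transcripts of some of these genes among their gated cells, although the control held no Ttr-high cell and 0 Kcne2 UMIs. Folr1 was not limited to 1 class in the control. It had 13 UMIs in 8 of 18 Zic-marked cells and 8 UMIs in 6 of 11 floor-plate-marked cells. Among the 12 genes highest over the other progenitors in both libraries were also Rbm47, an RNA-binding protein, at 7.98 (5.32 to 13.4) and 7.95 (6.51 to 9.87), Shisa8, at 6.98 (4.92 to 10.1) and 8.08 (6.79 to 9.74), Colec12, a scavenger receptor, at 6.01 (5.09 to 7.04) and 6.36 (5.90 to 6.86), and Metrnl, a secreted protein, at 4.95 (4.03 to 5.93) and 5.74 (5.07 to 6.45). Dkk2, also among the 12, had ratios of 5.16 (4.35 to 6.04) and 4.93 (4.19 to 5.70), and 38 of its 46 control and 19 of its 44 mutant UMIs came from floor-plate-marked cells.

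**Figure D3:**
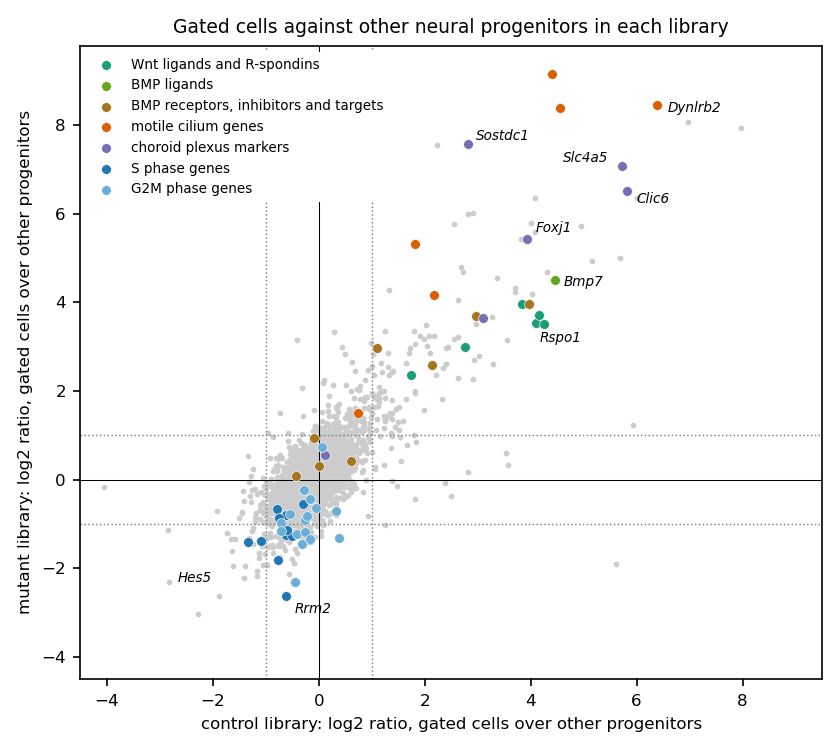
Log2 ratio of CPM in gated cells over other neural progenitors in the control (x axis) and mutant (y axis) library, 1 point per gene with at least 50 UMIs, without haemoglobin genes and genes at 0 in either kind of cell. Dotted lines mark 2-fold. WNT ligand, cilium and choroid plexus genes lie in the upper right, and S and G2M phase genes mostly below 0 in the mutant.

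The Ttr-high cells were set against the other gated cells of the mutant library, since the control had none. Ttr defined the cells, so only other genes are described. Of 3189 genes, 150 (4.70%) were at least 2-fold higher and 555 (17.4%) at least 2-fold lower in the Ttr-high cells, whose 111759 UMIs were 20.3% of the mutant gated UMIs, and the median log2 ratio over all genes was -0.18. Of 6 choroid plexus markers 4 were higher and 0 lower, of 8 motile cilium genes 7 and 0, of 5 ion and water transport genes 4 and 0, and of 6 secreted factors of the choroid plexus 3 and 0. These lists overlap, so they do not count separate genes. The 4 choroid plexus markers were Foxj1, Clic6, Slc4a5 and Sostdc1, and each is also in the cilium, transport or secreted factor list. Genes could also pass the UMI minimum through the Ttr-high cells themselves. By contrast 0 were higher and 11 lower of 14 S phase genes, 0 and 12 of 16 G2M phase genes, and 0 and 5 of 8 neural progenitor markers.

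Transport genes were higher in the Ttr-high cells as a class. Kcne2, a potassium channel subunit of the choroid plexus, had 40 UMIs in 7 of the 11 Ttr-high cells, 6 UMIs in 1 Zic-marked cell of the mutant and 0 in the control gated cells, a log2 ratio of 4.71 (3.46 to 6.24) within the mutant. Slc4a5 had 33 of its 39 mutant UMIs in Ttr-high cells, at 4.43 (3.16 to 5.98). Clic6 reached 411.6 CPM in Ttr-high cells against 52.5 CPM in the others, at 2.97 (2.22 to 3.76). The cation channel gene Trpm3, which hosts a microRNA of this epithelium, reached 894.8 against 139.2 CPM, at 2.68 (2.21 to 3.17). The anion exchanger gene Slc4a2 followed at 3.08 (2.08 to 4.15) on 28 and 13 UMIs. Atp1b1, a subunit of the sodium pump, had only 1 UMI in the Ttr-high cells and 14 in the others.

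Secreted factors were higher as well. Sostdc1, an inhibitor of BMP and WNT signalling, had 34 UMIs in 8 of the Ttr-high cells and 21 in the others, a ratio of 2.67 (1.84 to 3.52). Igfbp2, which binds insulin-like growth factors in the cerebrospinal fluid, reached 2299.6 against 1066 CPM, at 1.11 (0.88 to 1.33). Cst3, the protease inhibitor cystatin C, stood at 814.3 against 422.3 CPM, at 0.95 (0.57 to 1.32), below the 2-fold limit.

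Cilium genes accompanied them. Foxj1 was found in 10 of the 11 Ttr-high cells, with 53 UMIs against 35 in the 35 other mutant gated cells, at 2.57 (1.93 to 3.23). Cfap126, a protein of the ciliary axoneme, had 68 against 29 UMIs, at 3.20 (2.55 to 3.88), and Pifo 34 against 6, at 4.47 (3.20 to 6.02). Deup1, Dynlrb2 and Rsph1 had ratios of 2.15, 2.17 and 2.19. The remaining genes of the 12 highest were Chchd10, a mitochondrial protein, at 2.97 (2.09 to 3.90), 1110017D15Rik at 2.89 (2.02 to 3.80), Mlf1 at 2.49 (1.91 to 3.08), Vat1l at 2.83 (1.90 to 3.81), the LIM-domain factor Lmo1 at 2.91 (1.84 to 4.05) and Gm17018 at 2.26 (1.74 to 2.79).

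Summed over cells, progenitor and division genes were low in the Ttr-high cells. For the median cell this did not hold for G2M genes. Their median was 12.3 UMIs per 10000 UMIs of the cell in Ttr-high cells. It was 4.82 in mutant Zic-marked and 1.26 in mutant floor-plate-marked cells, where the top cell held 24.0% and 95.2% of the G2M UMIs. Hes5 was at 0 UMIs in the Ttr-high cells, with 85 UMIs in the other mutant gated cells. Fabp7 had 2 against 157 UMIs, at -4.32 (-7.38 to -2.45), and Fabp5 1 against 133, at -5.08 (-10.4 to -2.58). Id3, a BMP target that holds back differentiation, had 8 against 422 UMIs, at -3.75 (-4.97 to -2.76). Nnat, an imprinted gene, had 9 against 458 UMIs, at -3.70 (-4.84 to -2.76). The histone chaperone gene Nasp had 9 against 233 UMIs, at -2.72 (-3.87 to -1.77), and Ube2c, whose product works with the anaphase-promoting complex, 6 against 167, at -2.83 (-4.29 to -1.68). The cell cycle inhibitors Cdkn1c and Cdkn1a went the other way, at 1.08 (0.87 to 1.3) on 284 UMIs in 10 of 11 cells and 2.56 (1.69 to 3.45) on 30 UMIs. Their list of 10 cell cycle exit genes was split. Of 7 over the UMI minimum, 2 were at least 2-fold higher and 2 at least 2-fold lower, with a median of -0.23. Cdk1, a mitotic kinase, stood apart from the 12 lower genes of the G2M list, at 474.2 against 251.1 CPM, at 0.92 (0.42 to 1.40). Rspo3 was lower, at -1.95 (-3.04 to -1.03), while Msx1 was near the other cells, at -0.21 (-0.62 to 0.19).

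Single cells showed how far these programmes were shared. Summed over the 17 motile cilium genes, the Ttr-high cells ranged from 0 to 120.5 UMIs per 10000 UMIs of the cell, with a median of 43.3. Control Zic-marked cells ranged from 0 to 58.7 with a median of 2.02, and mutant ones from 0 to 76.2 with a median of 1.60. At a limit of 20 per 10000, set after the values were seen, 8 of 11 Ttr-high cells but also 2 of 18 control and 2 of 27 mutant Zic-marked cells were above it. The 2 control cells held 11 and 9 Foxj1 UMIs with 4 and 0 Ttr UMIs, and the 2 mutant ones 16 and 10 Foxj1 UMIs with 0 Ttr UMIs. Cells with many cilium transcripts and little or no Ttr were thus present in both libraries. For the 14 ion and water transport genes the medians were 26.4 in Ttr-high cells, 2.69 in control and 3.64 in mutant Zic-marked cells, and the classes overlapped. The Ttr-high cells ranged from 0 to 35.2, the control Zic-marked cells from 1.13 to 9.8 and the mutant ones from 0 to 29.5, and the haemoglobin-rich barcodes of the control were at 13.9 and 20.1. The mutant Zic-marked cell at 29.5 held 1 Ttr UMI and 6 Kcne2 UMIs.

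**Figure D4:**
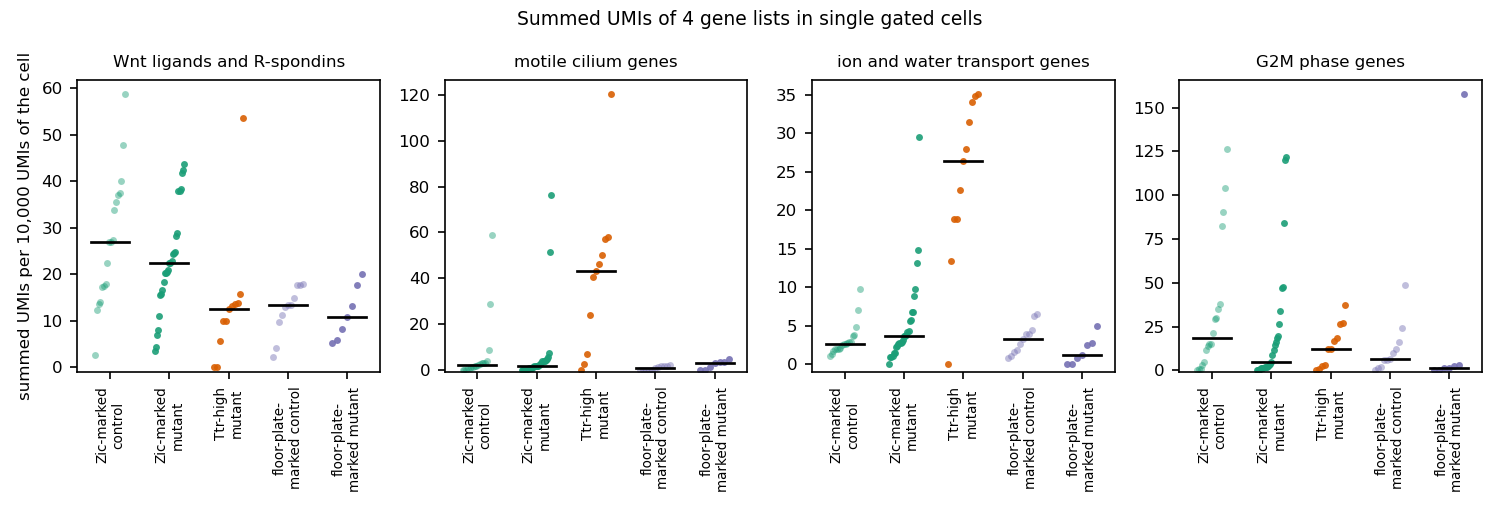
Summed UMIs of 4 gene lists per 10000 UMIs in single gated cells, 1 point per cell, by class and library, with the median as a line. The medians of cilium and transport genes are highest in the Ttr-high cells, while single Zic-marked cells reach into the range of the Ttr-high cells and G2M values overlap between Zic-marked and Ttr-high cells.

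Mutant and control were then compared over all gated cells. Neither targeted gene could be followed in them: Tfap2a had 0 UMIs in the gated cells of both libraries and Tfap2b 1 in the control and 0 in the mutant, and 0 of 407638 control UMIs allows up to 7.36 CPM by the limit of 3 counts and up to 9.05 CPM by the exact Poisson interval. In the other progenitors Tfap2a stood at 2.80 (1.60 to 4.55) and 3.26 (2.21 to 4.63) CPM and Tfap2b at 13.5 (10.6 to 16.8) and 10.3 (8.36 to 12.6) CPM. Over 3189 genes with at least 50 UMIs, 462 (14.5%) were at least 1.5-fold higher in the mutant and 199 (6.24%) at least 1.5-fold lower, with a median log2 ratio of 0.11. TMM scaling, which shifted all ratios by -0.11, gave 337 higher and 270 lower. Without the haemoglobin-rich barcodes the counts over the same 3189 genes were 305 higher and 290 lower. They were 297 and 278 when the minimum was applied anew to the remaining cells.

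Cilium and choroid plexus genes were 7 of the 12 highest in the mutant. Of the choroid plexus markers 6 of 6 were at least 1.5-fold higher, with a median ratio of 1.22, and of the motile cilium genes 7 of 8, with a median of 2.46. These counts are a description only. The minimum is over both libraries together, so genes such as Sostdc1 and Clic6 passed it through mutant UMIs, and the mutant cells include the 11 Ttr-high cells. Foxj1 is in both lists. Summed over each list without a minimum and without gate genes, the ratios were 1.41 (1.17 to 1.66) and 1.79 (1.54 to 2.04). Sostdc1 had 1 UMI in the control and 55 in the mutant, a ratio of 5.35 (2.81 to 10.7), and 4.29 with the Ttr-high cells left out. Cfap45, another axonemal protein, had 1 and 54 UMIs, at 5.32 (2.78 to 10.7). Clic6 had 4 and 69 UMIs, at 3.68 (2.26 to 5.59) in gated cells and 2.97 in other progenitors, and Trpm3 15 and 161, at 2.99 (2.23 to 3.86) with and 1.92 without the Ttr-high cells. The cilium genes Rsph1, Cfap126 and Deup1 had ratios of 4.05 (2.44 to 6.36), 2.85 (1.91 to 3.95) and 3.03 (1.83 to 4.52), and 3.27, 1.43 and 2.27 without these cells. The natriuretic peptide clearance receptor gene Npr3, at 3.12 (2.09 to 4.38), and Pcp4l1, a calmodulin-binding protein, at 3.4 (2.43 to 4.56), were found in 19 and 26 mutant gated cells. At a mitochondrial limit of 5%, Clic6, Trpm3 and Npr3 were at 0.95, 0.50 and 1.26, with intervals that include 0. Cfap126 and Deup1 were then at 4.17 and 5.45.

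The 2 highest ratios were not limited to the gated cells. Gm15261 had 1 control and 133 mutant UMIs, at 6.62 (4.12 to 11.9), and the GTPase activator gene Arhgap6 had 1 and 78, at 5.85 (3.33 to 11.2), but in the other progenitors their ratios were 8.87 and 8.49. Igfbp2 and Cdkn1c, in contrast, had ratios of 0.82 (0.63 to 1.02) and 1.15 (0.95 to 1.36) in gated cells and of 0.12 and -0.24 in the other progenitors. Among the 6 WNT ligand genes 1 was higher and 1 lower by 1.5-fold. Wls was the former, at 0.69 (0.43 to 0.95), and Wnt8b the latter, at -1.50 (-2.30 to -0.73).

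The lowest ratios were of 2 kinds. Alas2 and Hemgn, genes of the red cell lineage, had 57 and 51 control UMIs, all from the 2 haemoglobin-rich barcodes, and 0 mutant UMIs. Mt1, Car2, Slc25a37, Blvrb, Cpox, Mgst3 and Bpgm were also among the 12 lowest, at -6.75 to -2.09, and without those barcodes Cpox and Bpgm turned to 0.94 and 1.06. The other 3 of the 12 were cell cycle genes. Rrm2, a subunit of the enzyme that makes deoxyribonucleotides, had 132 control and 46 mutant UMIs, at -1.95 (-2.47 to -1.46), and -2.12 without those barcodes. Mki67, a marker of dividing cells, had 137 and 53, at -1.80 (-2.29 to -1.33), and cyclin A2 (Ccna2) 74 and 25, at -2.0 (-2.71 to -1.33). Without the haemoglobin-rich barcodes these 2 stood at -1.3 and -1.64. Of the S phase genes 0 were higher and 7 of 14 lower, with a median of -0.58, and of the G2M genes 0 were higher and 10 of 16 lower, with a median of -0.68.

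Because the classes were unequal in the 2 libraries, the Zic-marked cells were also compared alone, 18 control cells with 237657 UMIs and 27 mutant cells with 356945 UMIs. Over 2020 genes, 124 (6.14%) were at least 1.5-fold higher and 133 (6.58%) at least 1.5-fold lower in the mutant, with a median of -0.03. The cell cycle genes were lower here too, with 0 higher and 3 lower of 12 S phase genes and 0 higher and 9 lower of 13 G2M genes, at medians of -0.32 and -0.82. Rrm2 stood at 357.7 CPM in the control and 86.8 CPM in the mutant, a ratio of -2.04 (-2.68 to -1.43), Ccna2 at 180.9 and 56.0 CPM, at -1.69 (-2.53 to -0.89), and Mki67 at 290.3 and 126.1 CPM, at -1.2 (-1.78 to -0.64). In the other progenitors the same 3 genes had ratios of 0.06, -0.14 and -0.12. Mcm7 and Pcna, which license and clamp DNA at replication, were at -0.14 (-0.79 to 0.52) and -0.16 (-0.75 to 0.43), so their intervals include 0. Summed over 20 genes each, S phase UMIs had a ratio of -0.54 (-0.72 to -0.37) in Zic-marked cells and -0.03 in other progenitors, and G2M UMIs -0.77 (-0.90 to -0.65) and -0.06.

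The cells of the 2 libraries overlapped in these sums. For G2M genes, the control Zic-marked cells ranged from 0 to 126.5 UMIs per 10000 with a median of 18.2, and the mutant ones from 0 to 121.5 with a median of 4.82. For S phase genes the ranges were 3.57 to 56.2 with a median of 19.8 and 1.27 to 53.0 with a median of 11.9. When each cell was thinned to 5000 UMIs, the G2M medians were 23 and 4 UMIs per 10000. The share of cells at 30 or more G2M UMIs per 10000, a limit set after the values were seen, was 33.3% (13.3 to 59.0) in the control and 22.2% (8.62 to 42.3) in the mutant. Leaving out any 1 cell moved the summed G2M ratio to between -1.09 and -0.47.

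**Figure D5:**
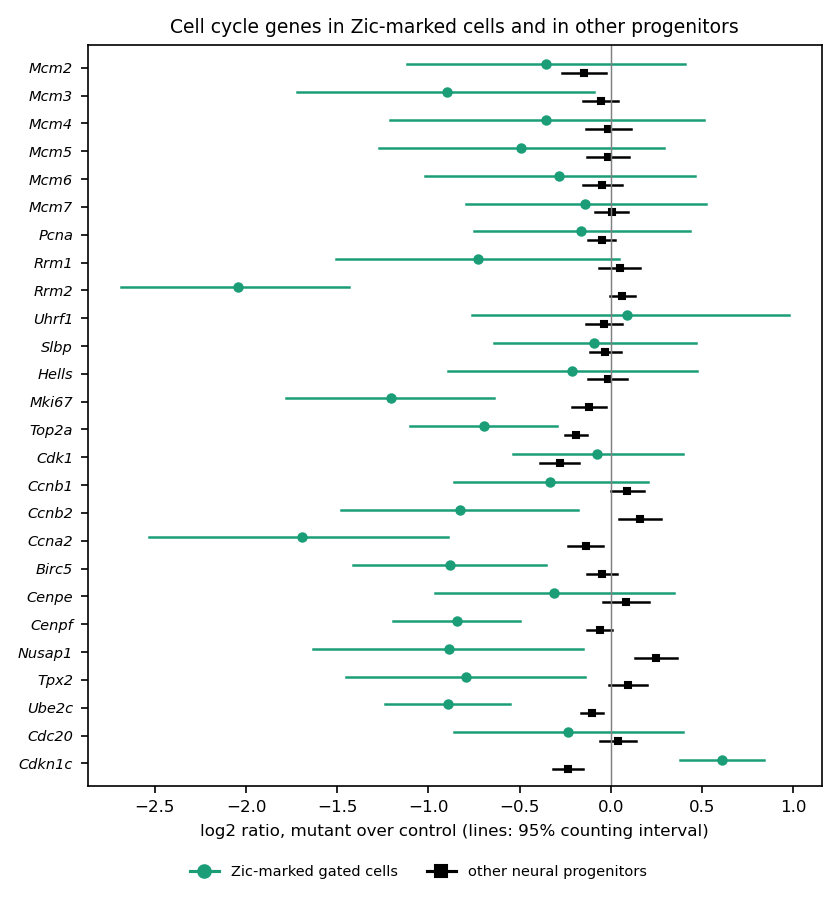
Log2 ratio of mutant over control with its 95% counting interval for cell cycle genes with at least 50 UMIs and for Cdkn1c, in Zic-marked cells (circles) and other neural progenitors (squares). Rrm2, Ccna2 and Mki67 lie furthest to the left in Zic-marked cells, while the squares lie close to 0.

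The cell cycle inhibitor gene Cdkn1c went the opposite way in Zic-marked cells, at 942.5 CPM in the control and 1437 CPM in the mutant, a ratio of 0.61 (0.38 to 0.84) against -0.24 (-0.32 to -0.15) in other progenitors. The genes of the WNT group were lower or near 0. Rspo1 stood at 580.7 and 397.8 CPM, at -0.55 (-0.89 to -0.20), Rspo3 at 648.0 and 409.0 CPM, at -0.66 (-1.0 to -0.33), and Wnt1 at 500.7 and 358.6 CPM, at -0.48 (-0.85 to -0.11). Of these 3 genes, Rspo3 alone passed the 1.5-fold limit. Wls and Msx1 had intervals that include 0, at 0.26 (-0.04 to 0.57) and 0.08 (-0.20 to 0.36). Summed, the WNT ligand and R-spondin list had a ratio of -0.30 (-0.45 to -0.14) and the roof plate markers -0.28 (-0.43 to -0.12), against -0.09 and -0.20 in other progenitors.

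Few choroid plexus and transport genes could be compared in Zic-marked cells. Of 2 choroid plexus markers over the minimum 0 were at least 1.5-fold higher in the mutant, with a median of 0.17, and of 2 transport genes 1 was. Summed over each list, the choroid plexus markers had 130 control and 264 mutant UMIs, a ratio of 0.44 (0.13 to 0.75) that moved between 0.25 and 0.65 when any 1 cell was left out. The ion and water transport genes had 78 and 194 UMIs, at 0.73 (0.34 to 1.13), or 0.38 to 0.94 without any 1 cell. In other progenitors the 2 ratios were 0.21 and -0.03. The 2 lists share members, among them Clic6 and Kcne2. The motile cilium sum rested on single cells: its ratio of 0.58 (0.30 to 0.87) ranged from -0.15 to 1.33 when any 1 cell was left out, and was 0.21 (-0.37 to 0.81) without the 2 cells above the cilium limit in each library.

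The following genes of the Zic-marked comparison were taken from the top of the ranking by the bound nearest 0, a choice made after the values were seen. Pcp4l1 had 9 control and 74 mutant UMIs, at 2.45 (1.45 to 3.64), and Meg3, a maternally expressed noncoding RNA, 19 and 102, at 1.84 (1.12 to 2.63). Anxa2, a membrane-binding annexin, Npr3, Nnat and Kcnq1ot1, an imprinted noncoding RNA, stood at 1.92 (1.06 to 2.90), 2.03 (0.94 to 3.32), 1.12 (0.83 to 1.42) and 1.23 (0.82 to 1.66). The matrix protein gene Sparc and Colec12 were at 1.04 (0.62 to 1.47) and 1.16 (0.72 to 1.62), but in other progenitors Colec12 was at 1.2. Trpm3 followed at 1.54 (0.68 to 2.49). Gm15261, at 5.97 (3.45 to 11.3), again stood apart in both kinds of cells. Tspo, at 2.58 (1.25 to 4.27), owed 60.0% of its 45 mutant UMIs to 1 cell. At the lower end, the ubiquitin-conjugating enzyme gene Ube2c was at -0.89 (-1.24 to -0.55), the kinetochore gene Cenpf at -0.84 (-1.19 to -0.50) and the condensin gene Smc4 at -1.02 (-1.58 to -0.46), next to Cxadr, an adhesion receptor, at -1.29 (-2.08 to -0.52) and Fmr1, an RNA-binding protein, at -1.17 (-1.89 to -0.47). Cell cycle genes thus made up 6 of the 8 lowest of this ranking.

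Markers of the other cell types given here were low. Summed over the gated cells, mesenchyme markers outside the gate had 9 control and 26 mutant UMIs, glia and Schwann precursor markers 5 and 7, otic vesicle markers 3 and 4, endothelium markers 5 and 12, and surface ectoderm, endoderm and pigment cell markers together at most 4 UMIs in a library for any 1 list. Neuron markers outside the gate had 79 and 38 UMIs. Scrublet called 1.65% of control and 3.06% of mutant kept cells doublets, and 0 of them were gated. The libraries shared 6 barcodes, of which 2 were gated in the control.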

How the data were processed

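Single-cell RNA-seq was performed on GFP-positive cells of Wnt1:CRE; mTmG heads at E11.5, with 1 control and 1 mutant library of 2 pooled embryos each. The authors prepared 10x Chromium 3′ libraries and counted them against mm10 with Cell Ranger, version 6.0.0 by the header of the files, and the deposited values are raw UMI counts per gene and barcode for 32285 genes, without normalization. Seurat 4.3.0 is named in the submitters' processing notes, but its output was not used here. The deposited files hold 6148 control and 6063 mutant barcodes.

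Barcodes with 200 to 7500 genes and at most 10% mitochondrial UMIs were kept, which left 82313680 control and 77251738 mutant UMIs. Doublets were called with Scrublet in scanpy 1.11.5 and kept. UMIs were summed per library over the gated cells, their classes or the other progenitors and divided by all UMIs of those cells (CPM). Ratios carry exact conditional binomial intervals, shares Clopper-Pearson intervals and CPM values Poisson intervals, all at 95%. UMIs of pooled cells are not replicates, so no p-value was computed. Genes with at least 50 UMIs over both libraries were counted as past the limit at 1.5-fold (mutant against control) or 2-fold (between kinds of cells). Gate, mitochondrial, Xist, Tsix and Y-linked genes were left out of counts. Mesenchyme-marked cells held 5 or more UMIs of Prrx1, Prrx2 and Twist1.

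Named genes were the 12 highest and 12 lowest of each comparison, ranked by the interval bound nearest 0 for mutant against control and for Ttr-high cells, and by the smaller ratio of the 2 libraries against other progenitors, without haemoglobin genes, together with members of fixed lists. Some genes that this rule names, and the sum of 1 marker list, are not reported here. The Ttr-high comparison was planned in both libraries but could be made in the mutant alone. The members and lists were chosen with earlier results of these data known, and the classes after the values were seen. The strand setting of the counting is not given in the sources used here, so overlapping genes on opposite strands cannot be told apart. Scripts were checked on simulated data. Python 3.11.15, numpy 2.4.6, scipy 1.17.1, pandas 2.3.3, R 4.3.3 and edgeR 4.0.16 (TMM scaling) were used.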

Additional observations from a re-analysis of the deposited data

Results flagged for a closer look

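Of 91 named or listed genes with enough UMIs in the Zic-marked cells, 11 lay on opposite sides of 0 in Zic-marked cells and in other progenitors, each with a 95% counting interval that leaves out 0. The 91 include genes named for the highest and lowest ratios of this same Zic-marked comparison, so the count of 11 is a description only. The share over all 2020 genes of that comparison was not counted. The difference between the 2 kinds of cells was not tested. As log2 ratios of mutant over control, higher in Zic-marked cells and lower in other progenitors were Ccnd2 (0.33 and -0.16), a cyclin of G1, Cdkn1c (0.61 and -0.24), Kcnq1ot1 (1.23 and -0.20), Meg3 (1.84 and -0.46) and Tspo (2.58 and -0.46). Cdkn1c and Kcnq1ot1 lie in 1 imprinted region. Lower in Zic-marked cells and higher in other progenitors were the mitotic genes Ccnb2 (-0.82 and 0.16) and Nusap1 (-0.89 and 0.25), Fabp7 (-0.57 and 0.19), Rfxap (-1.29 and 0.21), and the R-spondin genes Rspo1 (-0.55 and 0.50) and Rspo3 (-0.66 and 0.38).

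Among barcodes removed by the quality filter, the highest Ttr values were 818 UMIs in the control and 1487 UMIs in the mutant. The mutant one also held 72 UMIs of the mesenchyme genes of the gate and 67030 UMIs in all.

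Xist UMIs were found in 34 control gated cells and in 0 mutant ones, and UMIs of 4 Y-linked genes in 38 mutant gated cells and in 0 control ones.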

How the results depend on the processing

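No paired analysis was possible because each group has 1 library. Against the 462 genes higher and 199 lower in the mutant, a mitochondrial limit of 5% gave 249 and 90, and removal of the haemoglobin-rich barcodes 297 higher. Where cells were removed, the minimum was applied anew, so such counts are over fewer genes. Zic-marked cells alone gave 124 higher. Lower genes numbered 96 at a gate of 2 Lmx1a or 20 Ttr UMIs, 121 without Ttr-high cells and 378 with cells thinned to 5000 UMIs, which left out 1 control and 4 mutant cells. A minimum of 20 UMIs gave 1319 higher and 637 lower of 6525 genes, and a minimum of 200 UMIs 53 and 24 of 701. For Ttr-high cells (150 higher, 555 lower), the stricter gate gave 98 and 250 of 2028 genes. The minimum of 20 UMIs gave 533 and 1461 of 6525, and that of 200 UMIs 11 and 81 of 701. Against other progenitors (124 and 26), the stricter gate gave 75 higher of 2027 genes. The minimum of 20 UMIs gave 328 and 84 of 6524, and that of 200 UMIs 16 and 5 of 700. Removal of the haemoglobin-rich barcodes gave 16 lower of 3106 and Zic-marked cells alone 45 lower of 3188. The share of kept cells in the gate was 0.356% in the control and 0.483% in the mutant at the stricter gate, and 0.486% in the mutant at the 5% limit, where the Ttr-high share was 10.5%. Cpox reversed to 0.94 without the haemoglobin-rich barcodes and 2.41 in Zic-marked cells alone, and Bpgm to 1.06 and 1.58, since those barcodes held most of their control UMIs. The cause of the other shifts was not tested. Of 204 further values of named genes, 173 stayed within the counting interval, 27 moved out of it and 4 reversed. At the mitochondrial limit of 5%, 7 moved and 12 stayed. Clic6 fell to 0.95 (-2.17 to 4.53), Trpm3 to 0.50 (-0.87 to 1.90) and Npr3 to 1.26 (-0.17 to 2.83), so their intervals include 0. Pcp4l1 fell to 2.41 and Mgst3 to -4.22, while Cfap126 and Deup1 rose to 4.17 and 5.45. Equal weights for Ttr-high and other cells were not run, since the control had 0 Ttr-high cells. The alternatives on haemoglobin-rich barcodes, Zic-marked cells, shared barcodes and deep Ttr-high cells were chosen after seeing the data. Depth limits single genes: 0 of 407638 control UMIs allows up to 7.36 CPM by the limit of 3 counts (9.05 CPM by the exact Poisson interval).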

Other observations

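Single genes outside the groups described above, chosen after their values were seen, were higher in the mutant over all gated cells, where the classes were unequal. Crabp2, a carrier of retinoic acid, had 96 control and 279 mutant UMIs, a log2 ratio of 1.11 (0.77 to 1.46), and 0.43 (0.05 to 0.82) in Zic-marked cells alone. The keratin genes Krt18 and Krt8, which encode the filament pair of simple epithelia, had 8 and 45 UMIs, at 2.06 (0.96 to 3.36), and 4 and 33, at 2.61 (1.12 to 4.57). Apoe, a lipid carrier secreted in the brain, had 9 and 58, at 2.26 (1.23 to 3.46), and the growth factor gene Igf2 8 and 42, at 1.96 (0.85 to 3.26). In Zic-marked cells alone Krt18, Krt8, Apoe and Igf2 were at 1.5 (0.36 to 2.82), 1.74 (0.16 to 3.74), 1.32 (0.16 to 2.66) and 1.46 (0.24 to 2.90), on 34, 20, 30 and 29 mutant UMIs. Of 3 genes of the epithelial junction and keratin list over the minimum of 50 UMIs, 1 was at least 1.5-fold higher over all gated cells.

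In the Ttr-high cells, Apoe had 28 of the 58 mutant UMIs. Crabp2 was at 0.68 (0.29 to 1.06) in Ttr-high over other mutant gated cells, and Otx2, a factor on which choroid plexus formation depends, at 0.82 (0.38 to 1.24), with UMIs in 9 of the 11 cells.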
